A study of Mus musculus with 2 samples.

Results

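Mir143 and Mir145a are neighbouring microRNA (miRNA) genes whose products are known from smooth muscle. They were followed here in small RNA libraries of the newborn mouse lung. Both were found by matching the gene identifiers of the deposited tables to the symbols of the mouse gene annotation, and they make up 2 of the 1973 miRNA genes measured. The samples were lungs of B6NCrl pups taken on postnatal day 0, and the labels name no allele, transgene or treatment. The labels name 2 biological replicates, pups of 1 litter with both lungs pooled in each library. They give the same donor record for both and state that sex was not collected. There was no other tissue, age or treatment, so the data describe the pair within the newborn lung and compare the replicates. With 2 libraries, every spread below is that of 2 samples.

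miR-143 and miR-145 are cut from 1 primary transcript, which smooth muscle cells make under serum response factor and its partner myocardin. Their known targets include Klf4, Klf5 and Elk1, factors that favour the proliferating over the contractile state, and mice without the pair have thin, weakly contracting artery walls. In the lung they are known from the smooth muscle of airways and vessels, from pericytes and from fibroblasts. All of these cells lie in a whole lung together with endothelium, epithelium and blood. In such bulk RNA, fewer cells of a type and less of an RNA per cell cannot be told apart.

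The pair was set beside a list of miRNAs with known roles in smooth muscle. The mature sequences of 5 of the other members are shown because they mark both sides of smooth muscle biology. miR-10a accompanies differentiation. miR-21a and the pair miR-221 and miR-222 are known from proliferating vessel walls, and miR-146a from a feedback loop with Klf4. The sequences are from RefSeq on GRCm38.p6, written 5′ to 3′, with the seed, bases 2 to 8, in capitals.
mmu-miR-21a-5p: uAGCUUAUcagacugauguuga
mmu-miR-10a-5p: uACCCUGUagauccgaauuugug
mmu-miR-146a-5p: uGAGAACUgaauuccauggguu
mmu-miR-221-3p: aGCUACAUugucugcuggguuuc
mmu-miR-222-3p: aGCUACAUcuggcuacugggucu
miR-221 and miR-222 carry the same seed, and the other 3 each have a seed of their own among these 5. The tables count reads per precursor gene and do not separate its arms, so each level below is for the precursor that holds the mature sequence. A mature sequence was found in the RefSeq table for 12 of the 16 list members with a row in the deposited tables.

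In the counted reads, Mir143 was among the most abundant miRNAs of the newborn lung, and Mir145a was far lower. Mir143 had 297377 reads in replicate 1 and 380207 in replicate 2. Mir145a had 7115 and 8347. The levels do not overlap between the genes in either library. As counts per 1000000 reads on miRNA genes (CPM), Mir143 stood at 65604 and 70070 in replicates 1 and 2, a mean of 67837 ± 3158 (SD, n = 2). Mir145a stood at 1570 and 1538 CPM, a mean of 1554 ± 22.1 (SD, n = 2). Of every 15.2 counted miRNA reads in replicate 1 and every 14.3 in replicate 2, 1 was from Mir143. For Mir145a it was 1 in 637 and 1 in 650.

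Together the pair took 6.72% of counted miRNA reads in replicate 1, with an exact Clopper-Pearson 95% interval of 6.69% to 6.74%. In replicate 2 it took 7.16%, with an interval of 7.14% to 7.18%. The libraries held 4532902 and 5426081 such reads. For Mir145a the exact interval of the level ran from 1533 to 1607 CPM in replicate 1, and from 1506 to 1572 CPM in replicate 2, so the intervals overlap. For Mir143 they were 65376 to 65832 and 69856 to 70285 CPM, which do not. These intervals cover the counting error of reads within 1 library only, and not the spread between libraries. PCR copies a molecule into several reads, so for molecules the intervals can be too narrow.

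Mir143 ranked 3 in both libraries by counted reads. The rank leaves out 34.6% of reads in replicate 1 and 36.7% in replicate 2, which mapped to more than 1 place, so genes with near-identical copies can rank too low. Above it were Mir126a, an endothelial miRNA, and Mir322, and below it was Mir335. Mir335 had 57917 and 56521 CPM in replicates 1 and 2, and neither of its values reaches a value of Mir143. Mir145a ranked 60 and 62, above or level with 80.5% of the 308 genes that had 10 or more reads in each library. Its place there was not distinct. Mir369, Mir107, Mir382 and Mir324, at ranks 58, 59, 60 and 62 by mean level, all had values that overlap those of Mir145a. Mir130b and Mir139, at ranks 63 and 64, lay below it in both libraries.

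**Figure D1:**
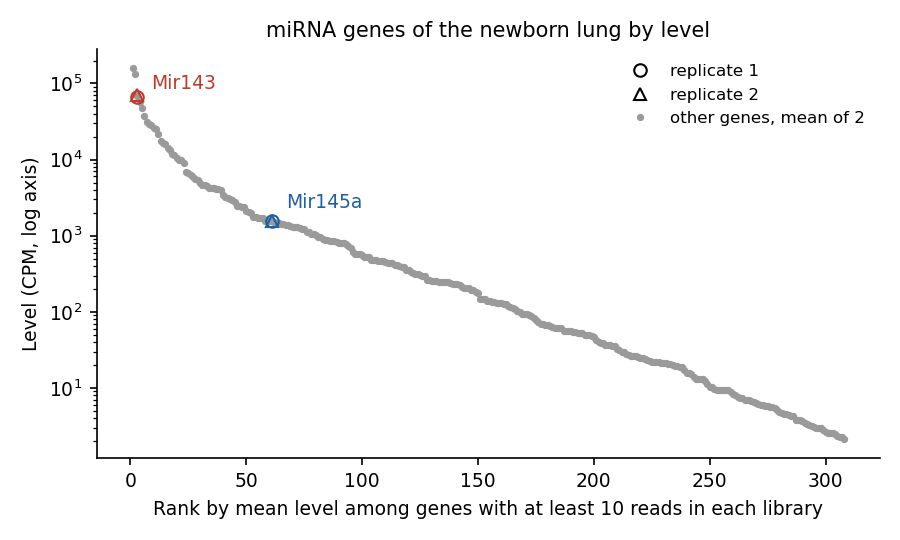
Level in CPM on a log axis against rank by mean level for the 308 miRNA genes that had 10 or more reads in each library. Circles and triangles are replicates 1 and 2 of Mir143 (red, rank 3) and Mir145a (blue, rank 61), and grey points are means of the other genes. Mir143 lies at the steep left end, and Mir145a lies on the flatter slope where neighbouring genes have nearly equal levels.

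The genes most like each member were sought by the Euclidean distance of log2(CPM + 1) over the 2 libraries. With 2 libraries this measures level rather than pattern. Mir335, Mirlet7g and Mir26b were nearest to Mir143, at distances of 0.36, 0.72 and 1.21. Mir107, Mir369 and Mir130b were nearest to Mir145a, at 0.015, 0.069 and 0.11. None of the 6 lies on the chromosome of the pair. Mir145a was not among the genes near Mir143, nor Mir143 among those near Mir145a.

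The precursors lie on chromosome 18 of the mouse assembly GRCm38 (mm10), on the minus strand. Mir143 (ENSMUSG00000065445.2) spans 61649196 to 61649258, and Mir145a (ENSMUSG00000065592.1) spans 61647825 to 61647894. Mir143 comes first in the direction of transcription, and 1301 bases separate it from Mir145a. The annotations differ on what surrounds them. In GENCODE M21 both are intergenic. Carmn, a long noncoding RNA that is also called Mir143hg and is known from smooth muscle and heart, ends 366 bases upstream of Mir143 on the same strand there. In RefSeq on GRCm38.p6, Carmn runs from 61645878 to 61665538 and spans both precursors. The RefSeq table used here gives no exons, so the precursors could not be placed in an exon or intron of that Carmn.

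Bvht, a long noncoding RNA known from heart development, lies on the opposite strand and ends 352 bases from Mir145a. The nearest protein-coding genes are Il17b, 35628 bases away on the side of Mir143, and Csnk1a1, 57763 bases away on the side of Mir145a. No source used here states the strand of the libraries, and the single-strand column with more reads was taken as the gene's own strand. In the other column, Mir143 and Mir145a had 0 reads in both libraries. With the limit for a count of 0 set at 3 reads, such reads could still amount to 0.662 and 0.553 CPM in replicates 1 and 2. Over all miRNA genes, the column used held 98.2% and 98.0% of the reads in replicates 1 and 2.

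**Figure D2:**
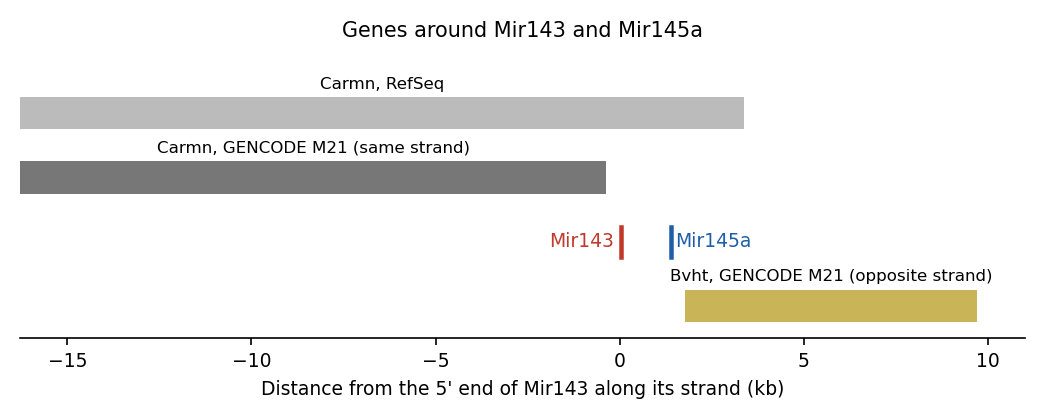
Map of the genes around the pair, in kilobases from the 5′ end of Mir143 along its strand, with positive values downstream. Mir143 (red) and Mir145a (blue) are 1301 bases apart and are drawn with a minimum line width. Carmn stops before Mir143 in GENCODE M21 (dark grey) and reaches past Mir145a in RefSeq (light grey), and Bvht (yellow) lies on the opposite strand.

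The precursors are short and unlike each other in sequence. Mir143 is annotated with 63 bases and Mir145a with 70, against a median of 90 over the 1894 annotated miRNA genes of the tables. The share of G and C was 55.6% in Mir143 and 48.6% in Mir145a, on either side of the median of 51%. Their longest common run is 5 bases. Neither holds a stretch of 20 bases found in another miRNA gene, so a read of that length is not lost to another miRNA gene through an identical stretch. Copies elsewhere in the genome were not searched. Mir145b shares a run of 17 bases with Mir145a and is not among the 308 genes that had 10 or more reads in each library.

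The pair made up nearly all counted miRNA reads of its chromosome. Of 50 miRNA genes of the tables on chromosome 18, 13 had reads in replicate 1 and 13 in replicate 2, not all of them the same. Mir143 and Mir145a held 99.5% of these reads in replicate 1 and 99.6% in replicate 2. Mir187 was the next highest there, with 1281 and 1352 reads. The miRNA genes closest to the pair were nearly silent in the counted reads. Gm25301, 249899 bases away, had 0 reads in both libraries, and Mir6983, 530293 bases away, had 2 and 0.

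Within the pair, Mir143 exceeded Mir145a in counted reads by about the same factor in both replicates. How fully each miRNA entered the libraries was not measured, so these are ratios of reads and not of molecules in the lung. The ratio of reads was 41.8 in replicate 1, with an exact binomial 95% counting interval of 40.8 to 42.8. In replicate 2 it was 45.6, with an interval of 44.6 to 46.6. The intervals do not overlap. On the log2 scale the ratio was 5.39 and 5.51, a mean of 5.45 ± 0.088 (SD, n = 2). Per base of the precursor the mean log2 ratio was 5.60. Put the other way, Mir145a made up 2.34% and 2.15% of the pair's reads in replicates 1 and 2. No p is given for the ratio, since an exact sign-flip test on 2 libraries cannot go below 0.5.

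The ratio itself was higher in replicate 2 by 0.12 on the log2 scale, or 1.09-fold. Fisher's exact test of the 4 read numbers, two-sided, gave p = 1.43e-07, and 5.19e-07 after Benjamini-Hochberg adjustment over 58 neighbouring pairs. This test needs no scaling of the libraries, compares these 2 libraries and covers counting error only. A difference of this kind was common, as 28 of the 58 pairs passed, which is 48.3%. Among all 58 pairs the difference was also small. It ranked 46 of 58 in size, against a median of 0.27. The 58 include pairs of few reads, where counting error is larger. Mir449c over Mir449b, with 42 to 90 reads a gene, differed by 0.39. The difference was not ranked among abundant pairs alone.

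The 58 pairs are consecutive miRNA genes on the same strand at most 10000 bases apart. Both genes of a pair have at least 10 reads in each library, and neither has a stretch shared with another miRNA gene. Pairs in a longer cluster share genes and are not independent. The ratio of Mir143 to Mir145a ranked 9 of the 58, where the median pair differed 5.25-fold. A difference of at least 10-fold in both libraries was seen in 18 pairs, or 31% of them, so an uneven pair as such was not unusual. Directly above it stood Mir541 over Mir377, at 5.79 ± 0.26 on the log2 scale (SD, n = 2), and directly below Mir369 over Mir410, at 5.32 ± 0.23. Both of those pairs belong to the imprinted miRNA cluster on chromosome 12. The extremes were Mir449a over Mir449b at 10.92 and Mir106b over Mir93 at 0.16.

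Few pairs combined such a ratio with such abundance. Only 12 pairs had both genes at a mean of at least 1000 CPM, and the pair ranked 2 among these, against a median log2 ratio of 2.53. Mir143 ranked 2 among the 49 genes that are the higher of a pair, whose median was 959 CPM. Mir145a ranked 5 among the 43 genes that are the lower of a pair, whose median was 137 CPM. In counted reads, Mir145a is thus low beside Mir143 and not low beside the other lower partners. The distance between the precursors was longer than the median of 538 bases. Among the 22 pairs with at least 1000 bases between them, the ratio ranked 2, and among the 36 closer pairs it would have ranked 8. The upstream gene was the higher in 32 pairs, as in this one, and the downstream gene in 26.

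**Figure D3:**
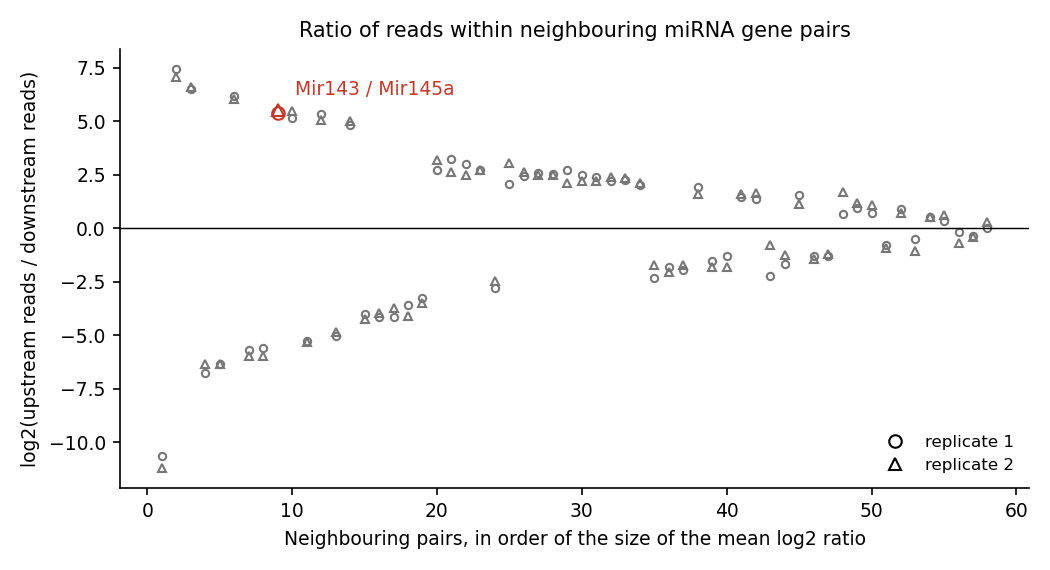
Ratio of reads of the upstream to the downstream gene, on the log2 scale, for 58 pairs of neighbouring miRNA genes in falling order of the size of their mean ratio. Circles and triangles are replicates 1 and 2. Mir143 over Mir145a (red) is at position 9, with 5.39 and 5.51 in the replicates, and pairs with a higher upstream gene and pairs with a higher downstream gene are both found among the most uneven.

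Between the replicates, Mir143 was slightly higher in replicate 2, and Mir145a did not pass the test. The log2 ratio of replicate 2 to replicate 1 was 0.095 for Mir143, with a 95% counting interval of 0.088 to 0.10, or 1.07-fold. Its adjusted p was 4.48e-158 by an exact binomial test, two-sided, adjusted by Benjamini-Hochberg over 375 genes. For Mir145a the log2 ratio was -0.029, with an interval of -0.075 to 0.017 and an adjusted p of 0.36 in the same exact test. Its direction was not settled, since it was 0.0025 with the TMM scaling of edgeR and 0.022 with totals that leave out the 10 highest genes. With reads mapped to several places added to the totals it was -0.091, and there it passed with an adjusted p of 0.000316 in the exact test. Mir143 was higher in replicate 2 under each of the 5 alternative scalings and columns, from 0.033 to 0.15.

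The difference of Mir143 was smaller than that of most genes with a mean of at least 1000 CPM. Of the genes ranked beside it in level, Mir126a, Mir322 and Mir335 differed less, at 0.00016, -0.024 and -0.035 on the log2 scale. Mirlet7g and Mir26b differed more, at 0.21 and 0.26. The test compares these 2 libraries and covers counting error only. By it, 159 of 375 genes passed, which is 42.4%, with 72 higher and 87 lower in replicate 2. This split became 93 higher and 68 lower with totals that leave out the 10 highest genes, and 58 and 107 with reads mapped to several places in the totals. Of 80 genes whose mean level was at least 1000 CPM, 69 passed, which is 86.2%. Of these, 57 had a larger log2 ratio in size than Mir143 and 70 a larger one than Mir145a. Their median size was 0.16, and they ranged from -0.80 to 0.33. Most genes with a mean of at least 1000 CPM thus differed more between the 2 libraries than either member.

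**Figure D4:**
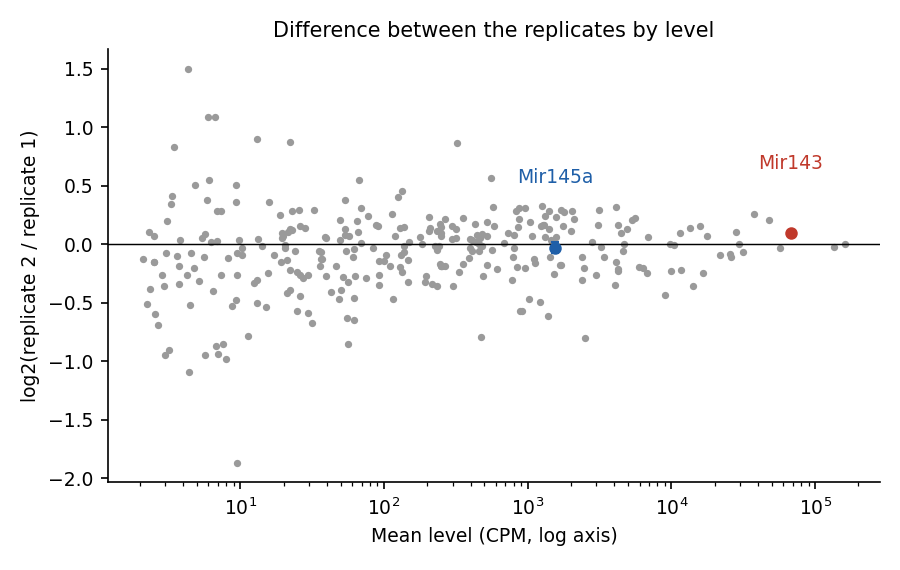
The log2 ratio of replicate 2 to replicate 1 against mean level in CPM on a log axis, for genes that had 10 or more reads in each library. Mir143 (red) is at 0.095 and Mir145a (blue) at -0.029, with bars for the 95% counting interval, which are about as small as the points. Most genes with a mean of at least 1000 CPM lie farther from 0 than either.

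The list of miRNAs with known roles in smooth muscle had 18 members, of which 16 had a row and 13 had at least 10 reads in each library. Mir143 had the most counted reads of them. Shared stretches are held by 7 of the 16, which lose any read that maps to more than 1 place. Its place against those 7 is thus uncertain, and the pair's share of the list can be too high. The list total was 110727 CPM in replicate 1 and 115619 CPM in replicate 2, and the pair held 60.7% and 61.9% of it, nearly all of that from Mir143. Mir145a held 1.42% and 1.33%. Mir24-1 and Mir1a-2 have no row under these symbols in the matched tables.

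Among members known from differentiated smooth muscle, Mir10a followed Mir143. It had 15047 and 16816 CPM in replicates 1 and 2, 10.3 times the mean of Mir145a. Mir490, located in the gene of the muscarinic receptor Chrm2, had 71 and 156 reads. Mir133a-1, Mir133a-2 and Mir1a-1, the miRNAs of contractile and striated muscle, had 0 reads in both libraries. All 3 hold a stretch shared with another miRNA gene, so their reads can be among those mapped to several places, and their levels are uncertain.

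Among members known from proliferating or injured vessel walls, Mir21a was the highest, with 26115 and 24633 CPM in replicates 1 and 2. Mir143 exceeded its mean 2.67-fold. Mir221 had 465 and 448 CPM, and Mir222 had 271 and 239 CPM, both below Mir145a in each library. Mir31, known from proliferating smooth muscle, had 244 and 256 CPM.

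The remaining members were lower than Mir145a in each library as well. Mir146, the row of miR-146a, had 749 and 912 CPM, and Mir24-2 had 507 and 533. Mir204, known from pulmonary artery smooth muscle, had 64.0 and 68.7 CPM. Mir26a-2 had 55.4 and 58.1 CPM, and Mir26a-1 had 20.1 and 18.1. Mir146, Mir24-2 and both Mir26a genes hold shared stretches, so their counts can be too low, and the order of these genes against Mir145a is uncertain.

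In the exact test between the replicates, 4 of the 13 members tested were higher in replicate 2, namely Mir143, Mir10a, Mir146 and Mir490. Mir21a and Mir222 were lower. The share of all genes that passed was 19.2% for higher and 23.2% for lower levels. The median log2 ratio was 0.069 over the 13 members and -0.028 over all 375 genes tested. With TMM or DESeq2 scaling Mir24-2 was also higher, and with totals that leave out the 10 highest genes Mir222 no longer passed. With reads mapped to several places in the totals 4 were higher and 4 lower, with Mir145a and Mir221 then among the lower.

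**Figure D5:**
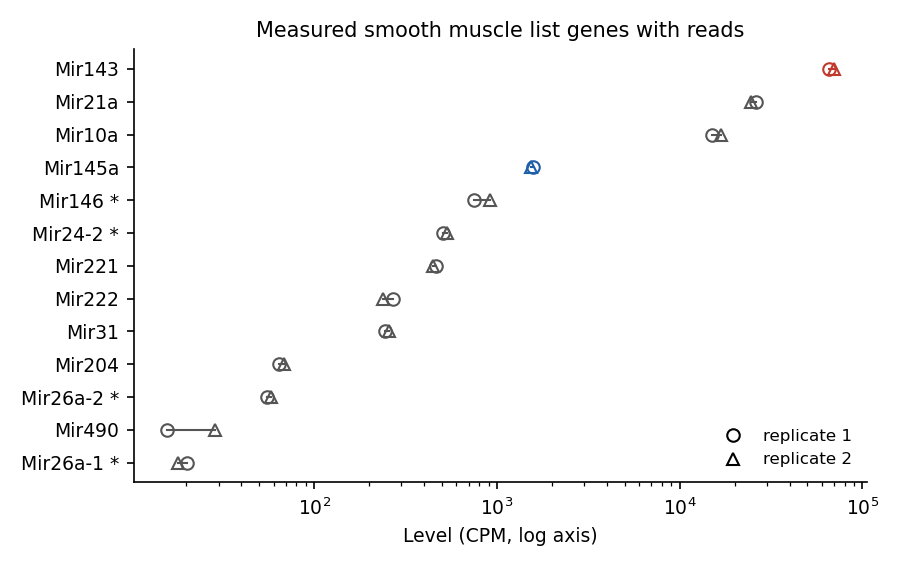
Level in CPM on a log axis of the 13 smooth muscle list members with reads, in order of mean level. Circles and triangles are replicates 1 and 2, and an asterisk marks genes with a stretch shared with another miRNA gene. Mir143 (red) is the highest in counted reads, Mir145a (blue) is the fourth, and the widest gap between replicates is that of Mir490, with 71 and 156 reads.

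Markers of other cells showed what the pair was measured among. The endothelial marker Mir126a had a higher level than the pair, which stood at 0.418 and 0.446 of it in replicates 1 and 2. The pair exceeded the summed lung epithelium markers, 5 of 5 measured, 2.18-fold and 2.36-fold, and the multiciliated markers, 5 of 5 measured, 3.04-fold and 3.22-fold. Against the counted reads of a fibroblast and mesenchyme list of miR-199, miR-214 and miR-10b, 5 of 5 measured, it stood 12.6-fold and 15.0-fold higher. The 3 miR-199 genes hold shared stretches, so that list can be undercounted and these folds too high. Of the blood lists, the leukocyte markers Mir223, Mir150 and Mir155, 3 of 4 measured, had 1502 and 1605 CPM in sum in replicates 1 and 2. The member not measured was Mir142, which has no row under this symbol, so this sum does not measure leukocytes as a whole. The erythroid markers, 2 of 2 measured, had 1292 and 1131 CPM. A striated muscle list of Mir208a, Mir208b, Mir499, Mir206 and Mir133b had 416 and 456 CPM in sum, and Mir145a alone stood at 3.78 and 3.38 times that sum. The list does not hold the miR-1 and miR-133a genes, the main miRNAs of striated muscle, whose levels are uncertain here, so the sum does not measure striated muscle as a whole. Which cells the reads of Mir143 and Mir145a came from was not tested.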

How the data were processed

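Small RNA of 2 newborn lung libraries was analysed as 1 group of 2 biological replicates. The authors deposited whole-number read counts per miRNA gene, without normalization, on mm10 with GENCODE M4 annotation per the deposited description. Which aligner, counting program and trimming were used is not given in the sources used here. Column 3, the larger single-strand column, was used as own-strand reads. The 4 rows that name no gene were left out. Reads mapped to several places were 34.6% and 36.7% of all reads in replicates 1 and 2, unmapped reads 8.49% and 8.69%, and reads on no feature 2.18% and 2.41%.

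Levels are own-strand counts per 1000000 of their sum over gene rows. Of 1973 identifiers, 1894 matched GENCODE M21 on GRCm38, and 79 did not. Replicates were compared by a two-sided exact binomial test of read splits with Benjamini-Hochberg adjustment at 0.05, over genes with at least 10 reads in both libraries together. The log2 ratios of that test have 0.5 reads added. The quasi-likelihood test of edgeR cannot be fitted with 1 library a side. A chi-square test of the read splits gave 75.2 for each of 374 degrees of freedom, more than sampling noise, so the libraries were counted separately. Whether the spread is between animals rests on the labels. The test was tried on simulated counts with sampling noise only, which cannot give its error rates on libraries that differ by more than that. Software was Python 3.11.15, scipy 1.17.1, edgeR 4.0.16 and DESeq2 1.42.0, the last 2 for scaling only.

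The members, the gene lists and the tests were chosen with earlier results of these data known. Fisher's exact test of ratios was added after the ratios were seen, as were the comparisons of pairs by level and by distance. Named were the members, the 3 genes nearest to each, the list members, the pairs beside theirs in ratio with the highest and lowest pair, and the nearest genes on the chromosome. The genes ranked beside each member were added afterwards.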

Additional observations from a re-analysis of the deposited data

How the results depend on the processing

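With reads mapped to several places in the denominator, the mean level was 40687 CPM for Mir143 and 933 CPM for Mir145a. Per 1000000 of all reads in the tables it was 36258 and 831, both from larger denominators. With the either-strand column Mir145a stood at 1525 CPM. Per base of the precursor, an alternative chosen after seeing the data, the log2 ratio of Mir143 to Mir145a was 5.60. The difference of Mir145a between replicates turned sign with TMM (0.0025) and with totals without the 10 highest genes (0.022). It passed the test at -0.091 with reads mapped to several places in the totals, and the cause was not tested. The rank of the pair's ratio became 18 of 88 with shared-stretch pairs kept in. Another 25 recomputed values kept their direction and side of the threshold, stayed within 1 SD over the replicates, or stayed within 1.5 times the count or rank. For 8 more, means of 2 libraries with a library left out, the other library's value remains, which says nothing of stability; the log2 ratio was then 5.39 or 5.51. No paired analysis was possible because there is 1 group. Reads in several places limit comparisons with shared-stretch genes.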
